A study of Mus musculus with 44 samples.

Results

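In the inner cell mass (ICM) of mouse blastocysts, 132 of the 152393 ATAC-seq peaks of the series lost accessibility without Sox2 but not without Oct4. These Sox2-only peaks were chosen by their deposited condition means. The mean of the *Sox2*-KO libraries lay at least 1 below that of their Ctrl in both early and late ICM on the log2 scale of DESeq2's regularised logarithm (rlog), while the *Pou5f1*-KO mean (*Pou5f1* encodes Oct4) stayed above Ctrl minus 0.3 at both stages. Under the same limits 2776 peaks were lost in both knockouts and 1100 were lost without Oct4 only, so loss without Sox2 alone was the rarest of these patterns.

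ATAC-seq measures where the Tn5 transposase can insert into open chromatin. KO embryos lacked both the maternal and the zygotic gene copy: *Pou5f1* +/mKO2 or *Sox2* +/EGFP males were mated with *Pou5f1* flox/flox or *Sox2* flox/flox females carrying Zp3-Cre, which deletes floxed alleles in the growing oocyte. Ctrl embryos of each cross had likewise lost the maternal copy and carried an intact paternal one, so every embryo measured here was at least a maternal KO. *Pou5f1* Ctrl and KO morulae at E2.75 and late morulae at E3.25 gave 3 libraries per condition, and ICMs of both crosses, early at E3.75 and late at E4.5, gave 4, or 44 libraries in 12 conditions; *Sox2*-KO morulae were not analysed here. The ICM embryos had been kept from E2.5 in 1 μM PD0325901, a MEK inhibitor that suppresses primitive endoderm, and each library pooled 20 to 40 embryos of mice on a hybrid background. Morulae were collected without the inhibitor, whereas ICMs were isolated by immunosurgery after this culture. Between morulae and ICMs, stage, inhibitor, culture and cell mix therefore cannot be told apart. Nothing in the sources places the libraries of a condition in separate cultures or days, so every p below measures the spread between pooled libraries only, and the depth behind an rlog value is unknown.

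Sox2 is a high-mobility-group protein that binds short A- and T-rich words in the minor groove and bends the DNA, and Oct4 is a POU-domain protein that binds an octamer. In pluripotent cells the pair often sits side by side on a joined SOX-OCT element in the enhancers that keep the pluripotency network active. GATA factors, which bind a GATA word, are best known in the blastocyst for their roles in primitive endoderm and trophectoderm.

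The 3 windows printed first show the word pattern that the Sox2-only peaks held more often than other peaks, a SOX word (CTTTGT or CATTGT, either strand) close to a GATA word (AGATAA, either strand). They are the 200 bp windows as deposited, read from the RefSeq GRCm38.p6 assembly (mm10), with SOX, GATA and OCT words (ATGCAAA or ATGCTAA) in capitals.
chr9:118504003-118504202, plus strand, between *Golga4* and *Eomes*: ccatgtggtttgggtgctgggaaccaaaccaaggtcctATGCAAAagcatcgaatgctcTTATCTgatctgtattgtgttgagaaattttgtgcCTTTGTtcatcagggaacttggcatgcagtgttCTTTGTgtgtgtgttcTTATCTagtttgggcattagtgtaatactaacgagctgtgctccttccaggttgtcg
chr5:130092036-130092235, plus strand, intron of *Tpst1*: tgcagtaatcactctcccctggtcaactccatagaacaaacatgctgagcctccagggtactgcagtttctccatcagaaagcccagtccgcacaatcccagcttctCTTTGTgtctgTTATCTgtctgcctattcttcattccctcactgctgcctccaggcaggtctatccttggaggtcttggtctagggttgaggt
chr12:111728188-111728387, plus strand, intron of *Apopt1*: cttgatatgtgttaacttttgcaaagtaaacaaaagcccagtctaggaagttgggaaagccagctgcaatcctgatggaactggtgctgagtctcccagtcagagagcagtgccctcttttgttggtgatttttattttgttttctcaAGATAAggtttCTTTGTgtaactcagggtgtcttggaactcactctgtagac
In the *Tpst1* window the SOX word at bases 108 to 113 and the GATA word at bases 119 to 124 lay 5 bp apart, in the *Apopt1* window the GATA word came first and the gap was again 5 bp, and in the *Eomes* window the second SOX word and the second GATA word were 10 bp apart.

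The next 3 windows show a sequence that recurred among the peaks with the deepest loss. Each is printed on the strand on which AACAATAG reads forward. Capitals mark AACAATAG in the first window and, in the other 2, the 16 letters AACAATAGAGTGATCT that they share letter for letter.
chr9:92326805-92327004, plus strand, non-coding exon of 1700057G04Rik: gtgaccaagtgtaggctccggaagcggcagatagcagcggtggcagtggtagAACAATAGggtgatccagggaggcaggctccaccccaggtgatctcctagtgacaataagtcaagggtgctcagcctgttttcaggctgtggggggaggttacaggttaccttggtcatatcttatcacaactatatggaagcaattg
chr13:116811519-116811718, plus strand, intron of *Parp8*: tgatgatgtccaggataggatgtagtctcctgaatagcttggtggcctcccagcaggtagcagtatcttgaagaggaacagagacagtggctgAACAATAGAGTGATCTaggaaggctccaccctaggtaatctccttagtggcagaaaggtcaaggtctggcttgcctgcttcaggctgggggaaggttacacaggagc
chr5:89559265-89559464, plus strand, intron of *Npffr2*: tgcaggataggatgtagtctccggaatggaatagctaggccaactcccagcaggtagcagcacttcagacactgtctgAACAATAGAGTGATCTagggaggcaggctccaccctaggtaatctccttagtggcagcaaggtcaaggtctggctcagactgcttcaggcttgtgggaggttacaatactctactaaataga
Of the 132 windows, 12 belonged to this set and all 12 held AACAATAG, which differs from the SOX words searched above but carries the ACAAT run to which SOX proteins also bind.

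Across the libraries, the Sox2-only peaks were on average most open in ICMs with Sox2. Without it they lay below the level of the *Pou5f1* cross morulae. Averaged over the 132 peaks, accessibility in *Sox2* Ctrl early ICM was 3.46 ± 0.23 (rlog, SD, n = 4 libraries; 3.21, 3.69, 3.33 and 3.61) and in *Sox2*-KO early ICM 2.11 ± 0.11 (1.96, 2.17, 2.09 and 2.22). At the late stage, Ctrl libraries were at 3.46 ± 0.061 (3.40, 3.43, 3.54 and 3.46) and the *Sox2*-KO libraries at 2.07 ± 0.24 (2.18, 1.83, 2.35 and 1.93). No KO library reached a Ctrl library at either stage, which the choice of peaks fixes. In bulk libraries, fewer cells with an open site and less accessibility per cell cannot be told apart.

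**Figure D1:**
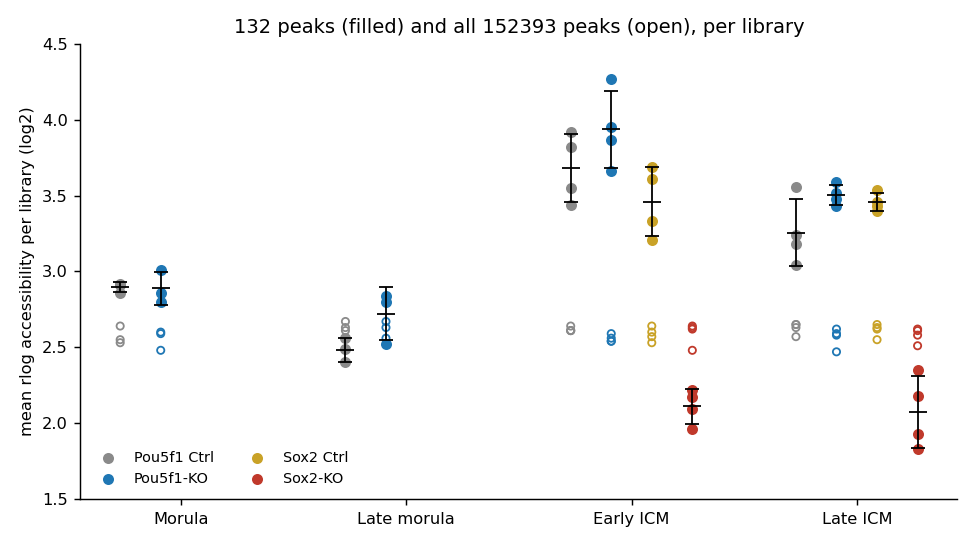
Mean rlog accessibility (log2) of the 132 Sox2-only peaks in each of the 44 libraries (filled points), with the mean of all 152393 peaks in the same library (open points). Bars are the mean ± SD over the 3 libraries of a morula condition or the 4 of an ICM condition. The *Sox2*-KO libraries lie between 1.83 and 2.35, below the mean of all peaks, and the other ICM libraries lie above it.

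In the *Pou5f1* cross the same peaks stood at 3.68 ± 0.23 in Ctrl and 3.94 ± 0.25 in KO early ICM, and at 3.26 ± 0.22 in Ctrl and 3.50 ± 0.069 in KO late ICM (n = 4 each), against all-peak means of 2.56 to 2.63. In Ctrl early ICM of either cross 107 of the 132 (81.1%) were at or above the median of all peaks, against 51 (38.6%) in *Sox2*-KO early ICM and 48 (36.4%) in *Sox2*-KO late ICM. Both *Sox2*-KO means lay below that of *Pou5f1* Ctrl late morulae, at 2.48 ± 0.078 (n = 3), and that of *Pou5f1* Ctrl morulae, at 2.90 ± 0.033 (n = 3). From Ctrl late morula to Ctrl early ICM of the *Pou5f1* cross, 111 of the 132 (84.1%) gained accessibility. The median change was 1.28, where the median of all peaks was -0.04. The peaks lost in both knockouts had a median of 1.94 with 98.6% above 0. Those lost without Oct4 only had a median of 1.1 with 85.9% above 0. A gain at this step was therefore not particular to the Sox2-only peaks. These ICM values share libraries with the choice and are a description.

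The differences that chose the peaks clustered near their limits. The median KO minus Ctrl difference was -1.25 at both *Sox2* stages, with extremes of -2.68 (early) and -2.74 (late). The *Pou5f1* differences had a median of 0.15 in early ICM, up to 1.32, and 0.14 in late ICM, up to 1.90, and 94 and 84 of the 132 were above 0. The peaks just inside the limit in *Sox2*-KO early ICM were those in *Npffr2* (-1.006) and *Xkr6* (-1.0064), with a peak near *Nrep* just outside (-0.9986), and in late ICM those near *Anxa10* (-1.0018) and *Smco4* (-1.0028), with one near *Pex3* outside (-0.9921). On the *Pou5f1* side, peaks near *Vmn2r99* (-0.2999) and *H2afb1* (-0.2664) in early ICM and near *Apcdd1* (-0.2991) and in *Gpc5* (-0.2983) in late ICM were inside, and peaks near *Ttc30a2* (-0.3002) and *Ctnnd2* (-0.3037) were outside.

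Membership was sensitive to single libraries. Leaving out any 1 of the 32 ICM libraries and applying the same limits gave 122 to 161 peaks, of which 105 to 130 were among the 132, and 25 (18.9%) remained members whichever library was left out. Of the words described below, those 25 held a SOX word in 64.0%, a GATA word in 40.0% and an OCT word in 8.0%, against 62.6%, 41.1% and 7.48% of the other 107, and more than 1 SOX word in 36.0% against 19.6%. The second repeat described below was in 20.0% of the 25 and 5.61% of the others.

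By limma with Benjamini-Hochberg adjustment over all peaks, 53 of the 132 (40.2%) were called lower in *Sox2*-KO early ICM, where 1.91% of all peaks were, and 74 (56.1%) in late ICM, where 4.88% were. Called higher in *Pou5f1*-KO late ICM were 12 (9.09%), against 8.19% of all peaks. The *Sox2* effect was called below the *Pou5f1* effect for 18 (13.6%) in early ICM, against 0.308% of all peaks, and for 34 (25.8%) in late ICM, against 0.351%. Every *Sox2*-KO library lay below every *Sox2* Ctrl library at both stages for 41 (31.1%), against 1.78% of all peaks. The limits were set on these very contrasts, so the counts describe the choice and no more. The counts moved with single libraries, and so did the calls over all peaks. In *Sox2*-KO early ICM 26 members were called when only the libraries compared were fitted, with 1851 of all peaks in place of 2917, and 29 without *Sox2* Ctrl replicate 2, with 2164 of all peaks. In late ICM 49 were called without *Sox2*-KO replicate 2, with 6036 of all peaks in place of 7440. The difference of the effects in early ICM was called for 11 members without *Pou5f1*-KO replicate 4, with 224 of all peaks in place of 469. In late ICM it was called for 18 without *Sox2*-KO replicate 2, with 287 of all peaks in place of 535, and for 21, 22 and 22 without *Pou5f1* Ctrl replicates 2, 3 and 4, with 405, 344 and 305 of all peaks. With the replicate number as a block it rose to 46 in early and 54 in late ICM, with 1060 and 1247 of all peaks.

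**Figure D2:**
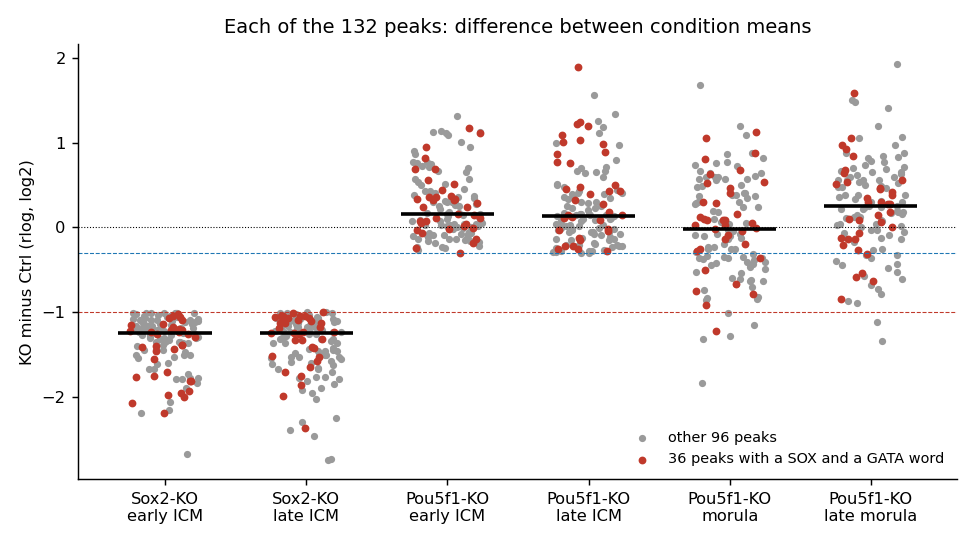
KO minus Ctrl difference between condition means (rlog, log2) for each of the 132 peaks in 6 comparisons, with the medians as bars and the limits of -1 and -0.3 as dashed lines. Red points are the 36 peaks with both a SOX and a GATA word. The *Sox2*-KO points lie below -1 by choice, and in *Pou5f1*-KO 94 peaks lie above 0 in early ICM, 84 in late ICM, 65 in morulae and 93 in late morulae.

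The peaks with the deepest loss and no overlap between *Sox2* libraries show the pattern one by one. The peak 2165 bp from the start of *Golga4*, a Golgi tethering protein, and 25241 bp from that of *Eomes*, a T-box factor required in trophoblast, gave 3.73, 4.47, 3.56 and 4.19 in *Sox2* Ctrl and 2.19, 2.05, 0.78 and 2.18 in *Sox2*-KO early ICM. In late ICM it gave 2.57, 2.61, 3.8 and 3.47 in Ctrl and 2.32, 1.16, 1.76 and 1.1 in KO. In *Pou5f1*-KO it stayed at 3.83, 4.38, 4.36 and 4.91 in early ICM, where its Ctrl gave 4.76, 4.16, 3.78 and 4.85. The *Sox2* groups did not overlap at either stage, the *Pou5f1* groups did, and all 12 morula libraries lay between 0.51 and 2.38.

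The peak in *Tpst1*, which encodes a Golgi sulfotransferase for tyrosines, gave 4.72, 5.58, 4.31 and 3.95 in *Sox2* Ctrl and 3.58, 2.96, 3.03 and 2.17 in *Sox2*-KO early ICM, and 2.95, 3.60, 4.06 and 4.40 against 1.99, 2.04, 2.00 and 1.54 in late ICM. Its *Pou5f1* Ctrl libraries stood at 4.0, 5.03 and 4.24 in morulae and at 2.0, 3.19 and 2.79 in late morulae, without overlap, and its *Pou5f1*-KO ICM libraries at 4.5 to 5.96. The *Sox2* groups did not overlap at either stage, while the *Pou5f1* ICM groups did.

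The intronic peak of *Apopt1*, a gene for assembly of cytochrome c oxidase, was among the most open of the set, at 5.20, 4.99, 4.37 and 5.85 in *Sox2* Ctrl and 4.14, 3.77, 2.55 and 4.11 in *Sox2*-KO early ICM. In late ICM it gave 6.0, 5.23, 5.43 and 5.92 in Ctrl and 4.05, 3.62, 3.89 and 3.06 in KO. Its *Pou5f1* ICM libraries, Ctrl and KO, ran from 5.02 to 6.45 with overlapping groups. The peak in *Cdc73*, a subunit of the Paf1 transcription elongation complex, lay 381 bp from its start and had *Sox2* differences of -2.19 and -1.81 and *Pou5f1* differences of -0.049 and -0.015. The peak in *Smad2*, which transduces Nodal signals, held 2 SOX and 2 GATA words and had *Sox2* differences of -1.43 and -2.37.

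**Figure D3:**
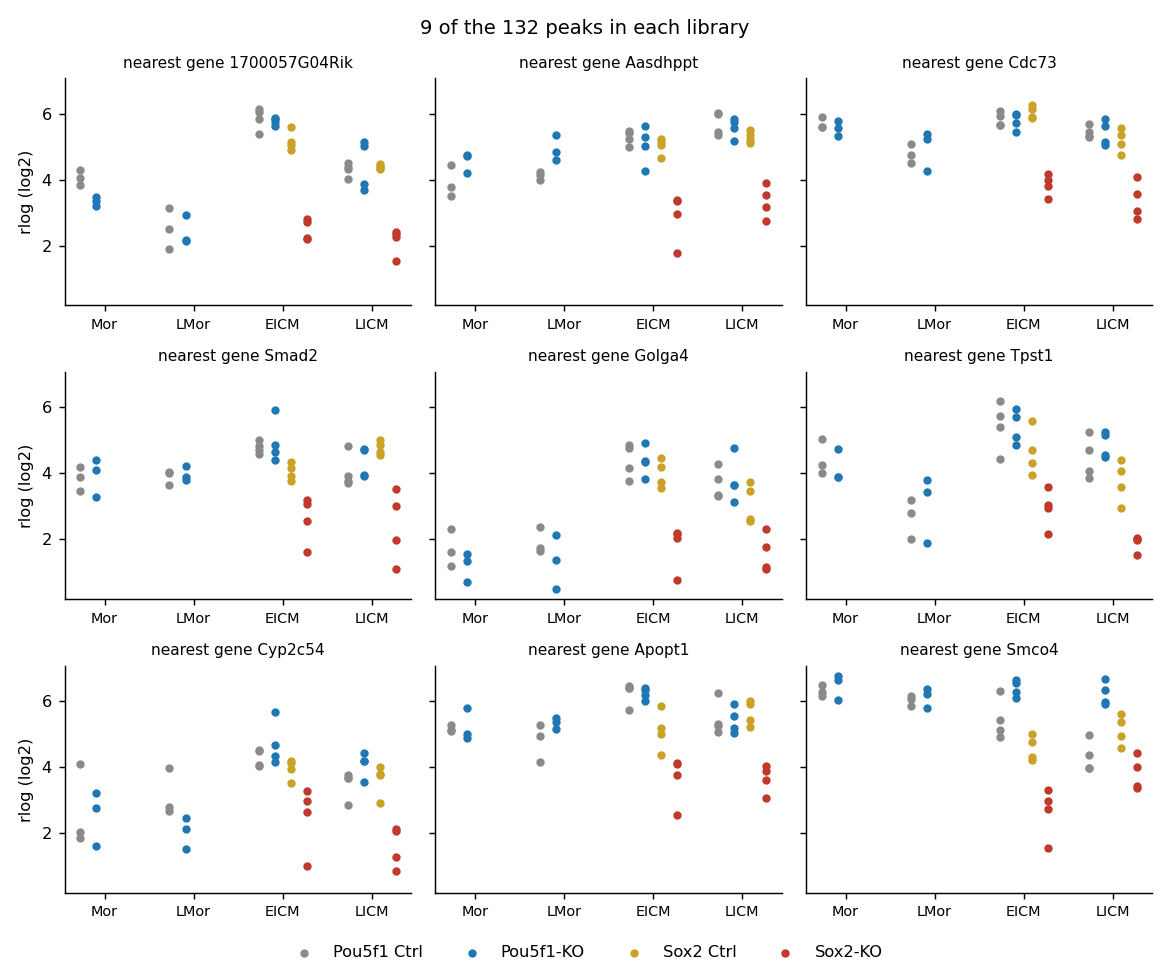
rlog accessibility (log2) of 9 Sox2-only peaks in each library at morula (Mor), late morula (LMor), early ICM (EICM) and late ICM (LICM), 1 point per library and titled by the nearest gene. In each panel the *Sox2*-KO points lie below all *Sox2* Ctrl points of the same stage, and near *Smco4* the *Pou5f1*-KO points of late ICM lie above all their Ctrl points.

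Some members had a positive difference without Oct4. The peak 28569 bp from the start of *Smco4* had the highest *Pou5f1* difference, with 4.98, 4.37, 3.98 and 3.97 in Ctrl and 5.92, 6.66, 6.33 and 5.97 in KO late ICM. In the same stage of the *Sox2* cross it gave 4.59, 5.62, 5.36 and 4.95 in Ctrl and 4.42, 4.01, 3.38 and 3.42 in KO. Neither pair of groups overlapped. The peaks near *Sulf1*, an extracellular heparan sulfate sulfatase, and *Trhde*, an ectopeptidase, followed with mean *Pou5f1* differences over both stages of 1.184 and 1.142, and the *Sulf1* peak belonged to the set with AACAATAG.

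Sequence words set the Sox2-only peaks apart from the other groups in ways the rule did not use. A SOX word was present in 83 of the 132 windows (62.9%), against 25% of all peaks, 46.7% of the peaks lost in both knockouts and 23.7% of those lost without Oct4 only. More than 1 SOX word was present in 30 (22.7%), against 3.93% of all peaks and 12.2% of those lost in both. A GATA word was present in 54 (40.9%), against 17.5% of all peaks, 17.8% of those lost in both and 13.9% of those lost without Oct4 only. Both words together occurred in 36 (27.3%), against 5.04%, 7.24% and 3.82%. These shares are descriptions of exact letters and no test was made of them.

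OCT words were about as rare as over all peaks. They were found in 10 of the 132 (7.58%), close to the 7.80% of all peaks, where the peaks lost in both knockouts held them in 26.6% and those lost without Oct4 only in 28.8%. The joined SOX-OCT word (CTTTGT, 1 free base, ATGCAAA, with up to 2 mismatches over the 13 set letters) occurred in 3 windows (2.27%), against 1.40% of all peaks and 19.1% of the peaks lost in both. An ESRRB word (AAGGTCA) was present in 16.7%, against 9.66% of all peaks and 18.7% of those lost without Oct4 only, a KLF word (GGGTGTG or GGGCGGG) in 9.85%, against 22.4% of all peaks and 10.2% of those lost in both, a TEAD word (GGAATG) in 18.9% of each, and a CTCF word (AGGGGGC) in 1.52% against 4.53%.

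**Figure D4:**
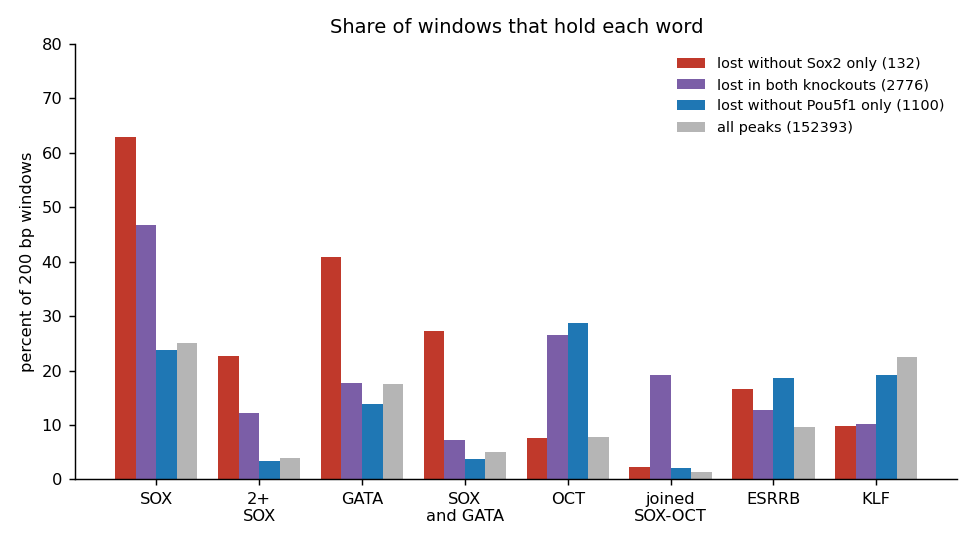
Share of 200 bp windows (percent) that hold each word on either strand, for the 132 Sox2-only peaks, the 2776 peaks lost in both knockouts, the 1100 lost without Oct4 only and all 152393 peaks. SOX and GATA words are most frequent in the Sox2-only peaks (62.9% and 40.9%), OCT words in the groups lost without Oct4 (26.6% and 28.8%), and the joined SOX-OCT word in the peaks lost in both (19.1%).

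The windows were poorer in G and C than the average peak, with a median of 46.0% against 50.0%, and such windows hold more A- and T-rich words. Within windows of 42.5% to 50.0% GC, a SOX word was present in 69.0% of 71 Sox2-only peaks against 29.6% of 63992 peaks, a GATA word in 46.5% against 23.0%, and both in 35.2% against 6.69%. An OCT word was in 7.04% against 10.1%, an ESRRB word in 14.1% against 12.5% and a KLF word in 12.7% against 17.8% of the same windows. Where both words occurred, the nearest pair was separated by a median of 19 bp in the 36 Sox2-only windows and 43 bp in 7683 windows of all peaks, with 16 (44.4%) against 19.5% within 10 bp. Of 119 SOX words 63.9% lay within 50 bp of the window centre, against 60.6% in the peaks lost in both knockouts and 51.5% over all peaks.

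Many of the windows without those SOX words carried a close relative. The 6-letter word with the highest ratio of shares, chosen after the counts were seen, was AACAAT, in 34.1% of the Sox2-only peaks against 8.74% of all and 23.0% of those lost in both. A SOX word or AACAAT was present in 102 (77.3%), against 29.2% of all peaks and 56.6% of those lost in both. CTTATC, which overlaps the GATA word by 5 letters on the other strand, was present in 34.1% against 13.3% and 9.22%, and AACAATAG in 20 (15.2%) against 1.40% and 8.03%.

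The 12 windows of the printed repeat are part of this count. They share 16-letter words found in at least 3 members, and such words occurred in 943 of all peaks (0.619%), in 152 of the peaks lost in both (5.48%) and in 2 of those lost without Oct4 only (0.182%). The median of these 12 windows was 76.8% soft-masked as repeat in the assembly. The 4 lowest mean *Sox2* differences of all 132 peaks belonged to this set, namely those in 1700057G04Rik (-2.464), in *Parp8* (-2.261), near *Mettl21e* (-2.092) and near *Aasdhppt* (-2.053). Outside the set a SOX word was still present in 68.3% of 120 Sox2-only peaks against 25.1% of all peaks, and a GATA word in 40.0% against 17.4%.

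The peak in 1700057G04Rik gave 4.91, 5.04, 5.14 and 5.59 in *Sox2* Ctrl and 2.19, 2.24, 2.72 and 2.81 in *Sox2*-KO early ICM. In the same stage its *Pou5f1* Ctrl libraries gave 6.14, 5.38, 5.82 and 6.05 and its *Pou5f1*-KO libraries 5.63, 5.82, 5.75 and 5.85. The *Sox2* groups did not overlap, and the *Pou5f1* groups overlapped.

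Other copies of this sequence had negative median differences without either factor. Among the 931 peaks with these words outside the 132, the median difference was -0.78 in *Sox2*-KO early ICM and -1.69 in late ICM, and -0.58 and -1.08 in *Pou5f1*-KO. Of these copies 346 (37.2%) were at most -1 at both *Sox2* stages, against 4277 (2.81%) of all peaks, and 152 (16.3%) were also lost without Oct4. The values rest on uniquely mapped reads, and the part of mapping between near-identical copies in them was not tested.

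**Figure D5:**
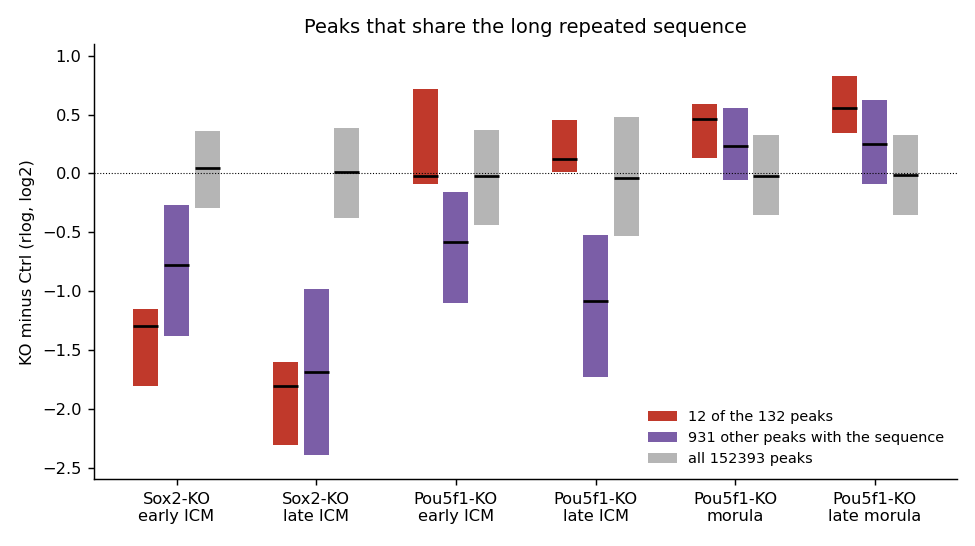
KO minus Ctrl difference (rlog, log2) in 6 comparisons for the 12 Sox2-only peaks and the 931 other peaks that share the repeated sequence, and for all 152393 peaks. Bars span the lower to the upper quartile and lines mark medians: the other copies have medians of -0.78 and -1.69 without Sox2 and of -0.58 and -1.08 without Oct4.

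A second group of 11 windows shared words of a far commoner repeat, present in 5.65% of all peaks but in 2.20% of those lost in both. Its other 8601 copies had median *Sox2* differences of 0.02 and -0.03. The group included the *Cdc73* and *Apopt1* peaks. In all, 42 of the 132 windows (31.8%) were at least 50% soft-masked, against 23.2% of all peaks and 37.2% of those lost in both.

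The morula libraries were not used by the rule and allow tests. Without Oct4 the Sox2-only peaks had a median difference of -0.01 at E2.75, with 65 of 132 above 0 (49.2%, against 48.8% of all peaks). Limma called 1 lower (0.758%), against 0.185% of all peaks, and 0 higher, against 0.0518%, with 7 lower and 5 higher at an unadjusted p under 0.05, which 4.63% and 3.61% of all peaks passed. The peak called lay in *Plod2*, which encodes a collagen lysyl hydroxylase, and gave 2.92, 4.14 and 3.29 in Ctrl and 1.42, 1.71 and 1.72 in KO. These groups did not overlap, with a difference of -1.83 ± 0.44 (SE; limma adjusted p = 0.0347). It was no longer called without Ctrl replicate 2 (adjusted p = 0.249) or 3 (0.0732) or without KO replicate 1 (0.0666), 2 (0.117) or 3 (0.169), over a range of 0.0258 to 0.289 in 10 alternatives, among them the comparison restricted to morula libraries (0.289).

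In late morulae most of the Sox2-only peaks had a positive difference without Oct4. Averaged over the 132, the Ctrl libraries gave 2.40, 2.56 and 2.49 and the KO libraries 2.52, 2.80 and 2.84, so the groups overlapped, while each KO library exceeded the Ctrl library of its number, by 0.12, 0.24 and 0.35, where the mean of all peaks differed by -0.05, -0.01 and -0.01. The median difference was 0.25 and 93 of 132 (70.5%) were above 0, against 49.1% of all peaks. The peaks lost in both knockouts had a median of -0.44 in the same libraries, and those lost without Oct4 only -0.50. These groups were chosen by loss in *Pou5f1*-KO ICM and the Sox2-only peaks by its absence. Whether the contrast in late morulae follows from that choice was not tested. Limma called 2 higher (1.52%), against 0.108% of all peaks, and 0 lower, against 0.539%, with 15 higher and 2 lower at an unadjusted p under 0.05, which 3.79% and 4.92% of all peaks passed. With the replicate number as a block, which pairs these libraries, 7 were called higher, against 0.871% of all peaks in the same fit. For the difference between the late morula and the morula effect, limma called 0 of all peaks (0%), with 6 of the 132 higher and 1 lower at an unadjusted p under 0.05, which 1.86% and 1.99% of all peaks passed, so a change of the Oct4 effect between these stages was not detectable here.

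The peaks called higher lay in an intron of *Cdc25c*, 776 bp from its start, and near *Il17b*. *Cdc25c*, the phosphatase that activates CDK1 at entry into mitosis, gave 1.47, 2.16 and 1.96 in Ctrl and 3.12, 4.13 and 4.13 in KO late morulae, a difference of 1.93 ± 0.42 (SE; limma adjusted p = 0.00573). *Il17b*, a cytokine gene 1301 bp from its peak, gave 3.8, 2.88 and 2.93 in Ctrl and 4.51, 4.54 and 5.27 in KO, a difference of 1.58 ± 0.41 (adjusted p = 0.0406). Neither peak's groups overlapped. Over 10 alternatives the adjusted p ranged from 0.00101 to 0.0759 for *Cdc25c* and from 0.00105 to 0.332 for *Il17b*. Both calls were lost without KO replicate 2 or 3, with 1 peak called when any other late morula library was left out, while 27 to 115 of all peaks were called higher in these fits in place of 165: *Cdc25c* was lost without Ctrl replicate 1 (0.0642), and *Il17b* without Ctrl replicate 2 (0.222) or 3 (0.216) or KO replicate 1 (0.0684).

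From morula to late morula most Sox2-only peaks had a negative change in Ctrl embryos. The median change was -0.38, against 0.08 over all peaks, and 89 of 132 were below 0, where 45.2% of all peaks were. The peaks lost in both knockouts shared this fall, with a median of -0.36 and 25.1% above 0, against 32.6% of the Sox2-only peaks. Those lost without Oct4 only had a median of -0.09. Limma called 15 lower (11.4%), against 2.79% of all peaks, and 1 higher (0.758%), against 3.65%. The largest was again *Cdc25c*, from 4.18, 5.06 and 4.21 in morulae to 1.47, 2.16 and 1.96 in late morulae, a change of -2.62 ± 0.42 (SE; limma adjusted p = 1.56e-05) that was called in all 10 alternatives. The peaks in *Irak3*, which dampens Toll-like receptor signalling, and near *Ppp2r5c*, a regulatory subunit of protein phosphatase 2A, changed by -1.97 ± 0.42 (adjusted p = 0.00107) and -1.90 ± 0.41 (0.00145). *Irak3* went from 5.76, 5.85 and 5.99 to 2.77, 4.72 and 4.21, and without Ctrl late morula replicate 1, its lowest library, the change was -1.40 with an adjusted p of 0.0660. The count of 15 fell to 9 without Ctrl morula replicate 2 or Ctrl late morula replicate 1, to 10 without Ctrl late morula replicate 3 and to 13 without any other. Over all peaks the 4255 called lower fell to 2404, 1893 and 2554 in the first 3 of these fits and to 2825 to 3146 in the others. The 1 higher became 2 without Ctrl morula replicate 1 or 3 or Ctrl late morula replicate 2, with 3177, 4834 and 3140 of all peaks called higher in place of 5560.

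In *Pou5f1*-KO embryos the same step had a median of -0.10, against 0.07 over all peaks and -0.37 in the peaks lost in both knockouts. Limma called 4 lower (3.03%), against 1.51%, and 0 higher, against 1.86%, with 21 lower and 4 higher at an unadjusted p under 0.05, which 6.76% and 9.59% of all peaks passed. The peak in *Kif16b*, an endosomal kinesin, went from 3.79, 4.21 and 4.25 to 0.83, 1.89 and 2.80, a change of -2.24 ± 0.51 (SE; limma adjusted p = 0.00441), that near *Lst1* by -1.72 ± 0.44 (0.0139), and that in *Grin2d*, an NMDA receptor subunit, by -1.84 ± 0.49 (0.0166). No member was called without KO late morula replicate 1 and 1 was called without KO morula replicate 1, with 470 and 876 of all peaks called lower in place of 2308. Whether the change from morula to late morula differs between Ctrl and KO is the same contrast as the difference of the Oct4 effects above, in which no peak was called.

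Copies of the repeats moved with these morula values. In the second group all 11 windows fell from Ctrl morula to late morula, with a median of -0.96, and all 11 were higher without Oct4 in late morulae, with a median of 0.24, and its 8601 other copies had medians of -0.58 and 0.35. The 12 windows of the first group had a late morula median of 0.56 without Oct4, and their 931 other copies 0.25. Among the 109 Sox2-only peaks outside both groups, the late morula median was 0.18 with 72 above 0 and the same 2 peaks called, and the Ctrl stage change was -0.35 with 14 called lower and 0 higher. Over all peaks 49.1% were above 0 and 0.108% were called higher in late morulae. In the Ctrl stage change 2.79% of all peaks were called lower and 3.65% higher.

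The Sox2-only peaks were mostly distal. By GENCODE vM21, 66 were intergenic (50.0%), 61 intronic (46.2%), 3 in non-coding and 2 in coding exons and 0 in an untranslated region. Only 1 (0.758%) lay within 100 bp of a transcription start, against 7.77% of all peaks and 0.829% of those lost in both, and 46 (34.8%) lay over 50 kb from any protein-coding start, against 19.3% and 38.7%. The median distance to such a start was 19816 bp, against 11675 bp for all peaks and 28671 bp for those lost in both.

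Nearness to known regulators of the early embryo was at or near background. Of 9 lists of ICM, lineage and signalling genes, members lay within 50 kb of a start for *Fbxo15*, an F-box gene long used as a marker of pluripotent cells, and *Eomes*, that is 1 of 132 (0.758%) for the pluripotency list and 1 for the trophectoderm list, where 0.543% and 0.240% of all peaks did. No member lay within 50 kb of a start of a gene in the formative, SOX family, primitive endoderm, LIF, FGF and ERK, Nodal, BMP and Wnt or Hippo lists, near which 0.124% to 0.224% of all peaks lay, so that a count of 0 among 132 is at background. *Smad2*, with a member 3627 bp from its start, was not on any list. None was within 2 Mb of *Sox2*, the nearest on chromosome 3 being 6843273 bp away. The *Fbxo15* peak gave 5.12, 4.99, 4.71 and 4.29 in *Sox2* Ctrl and 2.93, 3.14, 2.69 and 3.23 in *Sox2*-KO early ICM, without overlap. *Apold1*, *Gpc5*, *Plod2* and *Smco4* were each nearest to 2 members, and the *Gpc5* pair, 356 bp apart, was the only pair within 10 kb.

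Markers of the cell types in the ICM libraries moved too. Over peaks within 2 kb of the starts of 8 ICM and epiblast genes, the mean went from 3.78 to 3.45 in *Sox2*-KO early ICM, with 5 of 8 genes lower, and from 4.15 to 3.45 in late ICM, with 7 of 8 lower. The list holds *Sox2*, the gene deleted in this cross, and over the other 7 genes the mean went from 3.93 to 3.73 (4 of 7 lower) and from 4.32 to 3.76 (6 of 7 lower). In *Pou5f1*-KO the mean over all 8 went from 4.16 to 3.36 (7 of 8) and from 4.28 to 3.17 (8 of 8). For 8 trophectoderm genes the mean went from 3.71 to 3.98 (7 of 8 higher) and from 3.8 to 4.17 (7 of 8) in *Sox2*-KO, and from 3.82 to 3.70 (3 of 8 higher) and from 3.98 to 4.10 (4 of 8) in *Pou5f1*-KO. For 6 primitive endoderm genes it went from 2.97 to 2.87 (4 of 6 lower) and from 2.96 to 2.87 (4 of 6) in *Sox2*-KO. In *Pou5f1*-KO it went from 2.91 to 2.54 (5 of 6 lower) and from 2.90 to 2.63 (4 of 6). None of the lists' defining loci was at 0, and the part of these shifts in the Sox2-only pattern was not tested.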

How the data were processed

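The deposited log2 values are regularised logarithms that the authors computed with DESeq2 from Tn5 insertions in 200 bp windows. Per the labels and the methods, reads were aligned to mm10 with Bowtie2, duplicates were removed with Picard, uniquely mapped reads were kept and shifted for the transposase, peaks were called with MACS2 and kept where replicates shared a summit, and insertions were counted with bedtools; versions are not given in the sources used here. The values run from -1.65 to 10.03, and library medians from 2.352 to 2.631. Because rlog shrinks low counts, differences of weak peaks are understated, and depth cannot be recovered.

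The deposited condition means were recomputed from the 44 libraries (largest difference 4.3e-08) and gave the same 132 members. All 152393 peaks were fitted with limma 3.58.1 (R 4.3.3; 1 mean per condition, 32 residual degrees of freedom, trended prior, two-sided tests, Benjamini-Hochberg adjustment over all peaks, threshold 0.05), a procedure tested on simulated data. Sequence was read from the RefSeq GRCm38.p6 genome, gene models from GENCODE vM21, with Python 3.11.15, pandas 2.3.3 and NumPy 2.4.6. Words were matched exactly on both strands, except the joined SOX-OCT word, which was allowed mismatches; members sharing 16-letter words (all 4 bases present) held by at least 3 members were grouped.

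Members and lists were chosen with earlier results of these data known, and the shared-word groups, the 6- and 8-letter words and the GC, repeat and marker list alternatives after the values were seen. Peaks named singly were the 8 lowest mean *Sox2* differences with non-overlapping libraries, the 3 highest *Pou5f1* differences, those next to each limit, the 3 smallest adjusted p per morula comparison, the deepest member near each list gene, and members of the genes nearest to the most members; those of the first repeat group beyond these were chosen after their values were seen. Same-numbered KO and Ctrl libraries deviated together in all pairs (every correlation of deviations over 0.1) for *Pou5f1* late morula (0.141, 0.192, 0.109) and early ICM (0.121 to 0.162), and not in every pair of the other comparisons.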

Additional observations from a re-analysis of the deposited data

Results flagged for a closer look

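For the 32 peaks named singly by the rule and the mean over all members, 264 groups of 4 libraries were looked at for a library that stood far from the other 3 (gap over range above 0.829), and 14 did, all at single peaks; chance gives about 1 in 20 such groups. In the *Sox2* cross, on the rlog scale, they were KO early ICM replicate 3 at the *Eomes* peak (0.78), KO late ICM replicate 4 at the *Tpst1* peak (1.54) and replicate 1 at the *Sulf1* peak (2.31), Ctrl early ICM replicate 4 (3.80) and Ctrl late ICM replicate 2 (3.47) at the *Trhde* peak, Ctrl early ICM replicate 1 at a *Gpc5* peak (3.18) and at the *Irak3* peak (3.32), and Ctrl late ICM replicate 3 at the intronic *Plod2* peak (5.07). In the *Pou5f1* cross they were Ctrl late ICM replicate 4 at the *Cyp2c54* peak (2.85), replicate 3 at the *Irak3* peak (4.30) and replicate 2 at the *Fbxo15* peak (3.68), Ctrl early ICM replicate 4 at the *Apopt1* peak (5.72), KO early ICM replicate 4 at the intronic *Plod2* peak (5.38) and KO early ICM replicate 1 at an *Apold1* peak (4.46).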

How the results depend on the processing

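Depth is unknown, so the limits here are the libraries. With quantile normalization the rule gave 136 peaks (107 of the 132 among them) and with condition medians 188 (92 among them). A limit of -1.5 without Sox2 left 10 peaks, a limit of 0 without Oct4 left 70, and leaving out single libraries gave 122 to 161. Quantile normalization moved the calls from Ctrl morula to late morula to 23 lower and 3 higher and those in KO to 7 lower, while the calls over all peaks went from 4255 to 6837, from 5560 to 6545 and from 2308 to 3325. With only the libraries compared, 0 peaks were called lower in *Pou5f1*-KO morulae and 26 in *Sox2*-KO early ICM (over all peaks 22 in place of 282 and 1851 in place of 2917). With the replicate block, 0 were called lower in *Pou5f1*-KO morulae, 7 higher in *Pou5f1*-KO late morulae, 7 lower from KO morula to late morula, and 46 and 54 in the difference of the knockout effects in early and late ICM. Over all peaks the block gave 120, 1328, 2676, 1060 and 1247, in place of 282, 165, 2308, 469 and 535. In *Sox2* early ICM, where same-numbered libraries correlated at 0.221, 0.0859, 0.104 and 0.293, each more than with any other number, the block gave 62 members and 3434 of all peaks in place of 53 and 2917; the labels do not say what a number marks. Leaving out 1 library gave 0 to 1 called lower in *Pou5f1*-KO morulae, 0 to 1 higher in late morulae, 9 to 13 lower and 1 to 2 higher from Ctrl morula to late morula, 0 to 5 lower in KO, 29 to 57 and 49 to 76 in *Sox2*-KO early and late ICM, and 11 to 24 and 18 to 40 in the difference. Over all peaks the same fits called 12 to 962 lower in *Pou5f1*-KO morulae and 27 to 115 higher in late morulae. From Ctrl morula to late morula they called 1893 to 3146 lower and 2454 to 4834 higher, and in KO 470 to 2100 lower. In *Sox2*-KO early and late ICM they called 2118 to 2806 and 6036 to 6613, and in the difference 222 to 577 and 287 to 672. Without both repeat groups 0 were called higher from Ctrl morula to late morula, where 3.65% of all peaks were. The joined SOX-OCT word was in 23 windows with up to 3 mismatches and in 0 with none, and 0 list genes had a member within 10 kb. Of 23 calls of single peaks in morula comparisons, 7 held in all 10 alternatives, 51 of 230 combinations lost the call and 0 reversed. The cause of these changes was not tested.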
